A study of Mus musculus with 162 samples.

Results

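The genes described here are 10 mouse genes whose products regulate pre-mRNA splicing: Pnisr, Clk1, Clk2, Clk3, Clk4, Srsf2, Srsf5, Srsf6, Luc7l3 and Rsrp1. They were chosen by their measured RNA levels in the cerebellum over fasting time, so the cerebellar values over time are given as a description with no test. CBL enters 1 test, of levels among organs, which is given with and without it. They are 10 of the 53686 genes in the count table, and all 10 passed the filter on low counts in each of the 9 organs.

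The study sequenced polyadenylated RNA from 9 organs of 18 wild-type C57BL/6J mice, which its methods give as males of 8 to 9 weeks. Of these, 3 mice were fed freely (0 h) and 3 mice each were fasted for 2, 8, 12, 18 or 22 h, with no genetic change or drug in any group. The start of the fast differed between groups, and each mouse gave all 9 organs: olfactory bulb (OB), brain (BRN), cerebellum (CBL), brainstem (BST), stomach (STM), liver (LIV), interscapular brown fat (iBAT), perigonadal white fat (pgWAT) and posterior subcutaneous white fat (psWAT). A time point in an organ therefore holds 3 libraries, and the mice of a time point are the same animals in every organ.

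Of 162 libraries, 5 were left out and the rest used. On the log2 scale the 5 had totals more than 2 SD below their organ's mean: BRN 8 h replicate 3, BRN 18 h replicate 1, STM 12 h replicate 3, iBAT 22 h replicate 1 and psWAT 22 h replicate 2. Median totals of the libraries used ran from 6880700 counts in psWAT to 11630035 in OB, and the lowest single total was 3045845, in BRN. In CBL the 0 h libraries held 20396385, 22071004 and 21497914 counts, while the other 15 held between 6487419 and 9487976.

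The 4 marker genes of each organ were detected in every library of that organ. In CBL, Gabra6 lay between 847.4 and 1113 CPM (a library's counts rescaled to a common total). In LIV, Alb lay between 46610 and 68280 CPM. In psWAT the fat markers varied most, with Adipoq between 36.5 and 2803 CPM. By distance to organ means, all but 3 of the libraries used lay nearest to their own organ, and those 3 were pgWAT 22 h replicate 2 (nearest STM), psWAT 8 h replicate 1 (nearest pgWAT) and psWAT 12 h replicate 3 (nearest CBL).

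The Clk genes encode dual-specificity kinases that phosphorylate serine and arginine rich (SR) splicing factors in the nucleus, and Clk transcripts are themselves often kept in the nucleus with retained introns. SR proteins such as those from Srsf2, Srsf5 and Srsf6 bind exonic sequences and help to recruit the splicing machinery, and their own transcripts are spliced into unproductive forms. LUC7L3 is associated with the U1 small nuclear ribonucleoprotein, and PNISR and RSRP1 are proteins with stretches rich in serine and arginine.

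By the annotation of GRCm38 (Gencode release 21), 9 of the 10 genes have at least 1 transcript annotated as retaining an intron, all but Pnisr, against 41.5% of 21951 protein-coding genes. Of the 10, 9 have a transcript annotated for nonsense-mediated decay, all but Rsrp1, against 20.8% of protein-coding genes. Clk1 (chromosome 1, 58410189 to 58424066, minus strand) and Clk4 (chromosome 11, 51261730 to 51281766, plus strand) have 7 intron-retaining transcripts each. In Clk1, 77.9% of exon bases lie outside its protein-coding transcripts, in Luc7l3 7.57%, and the median over protein-coding genes is 4.515%. The table counts reads per gene, so these transcript forms were not measured apart. Clk3 shares 1284 exon bases with Edc3 on the opposite strand, and Srsf2 shares 460 with Mettl23 and 288 with Mfsd11, also on the opposite strand. Clk4 shares 59 with Gm25082, a noncoding RNA gene on the same strand.

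All values below are CPM normalized within an organ unless a sentence says otherwise. In CBL, the kinase gene Clk1 measured 189.5, 193.3 and 227.6 CPM at 0 h, 224.2, 218.1 and 169.6 at 2 h, 116.2, 225.8 and 149.6 at 8 h, 155.1, 145.5 and 149.1 at 12 h, 155.5, 162.1 and 103.9 at 18 h, and 101.7, 108 and 95.1 at 22 h. All 6 libraries of 18 and 22 h lay below all 6 of 0 and 2 h, which held for no other of the 10 genes. At 8 h, replicate 2 was as high as the 0 h libraries while replicate 1 was nearly as low as those of 22 h.

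Clk4 gave means of 99.9 CPM at 0 h (SD 1.95, n = 3) and 59.8 at 22 h (SD 5.34, n = 3). The ratio of the 22 h mean to the 0 h mean was 0.599 for Clk4, 0.499 for Clk1, 0.681 for Clk2 and 0.746 for Clk3. All 4 kinase genes were thus lower at 22 h, and for each the 3 libraries of 22 h lay below all 3 of 0 h.

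Among the SR protein genes, Srsf5 measured 292.4, 295.2 and 297.4 CPM at 0 h, 314.1, 314 and 221.6 at 2 h, 192.2, 324 and 237.2 at 8 h, 213.7, 188.6 and 208.1 at 12 h, 317, 293.1 and 159.5 at 18 h, and 167.1, 155.2 and 139.8 at 22 h. Replicates 1 and 2 of 18 h were as high as the fed libraries, and replicate 3 of 18 h was among the lowest. The 22 h to 0 h ratio was 0.522 for Srsf5, 0.605 for Srsf6 and 0.748 for Srsf2.

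Pnisr, an SR-related gene, measured 368.3, 334.1 and 338 CPM at 0 h, 352.4, 356.7 and 248.6 at 2 h, 191.2, 370.8 and 270.6 at 8 h, 233.7, 186.99 and 218 at 12 h, 351.4, 336.6 and 149.8 at 18 h, and 167.01, 158.8 and 138.2 at 22 h. Its pattern over libraries was close to that of Srsf5, with 18 h replicate 3 and the 22 h libraries at the bottom. The 22 h to 0 h ratio was 0.446 for Pnisr, the lowest of the 10, 0.571 for Luc7l3 and 0.631 for Rsrp1. Over the 0 and 2 h against the 18 and 22 h libraries of CBL the median log2 fold change (log2FC) of the 10 genes was -0.51, beside -0.01 over 15976 genes. The genes were chosen by these CBL values, so the gap between the medians follows from the choice and is not a result.

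**Figure D1:**
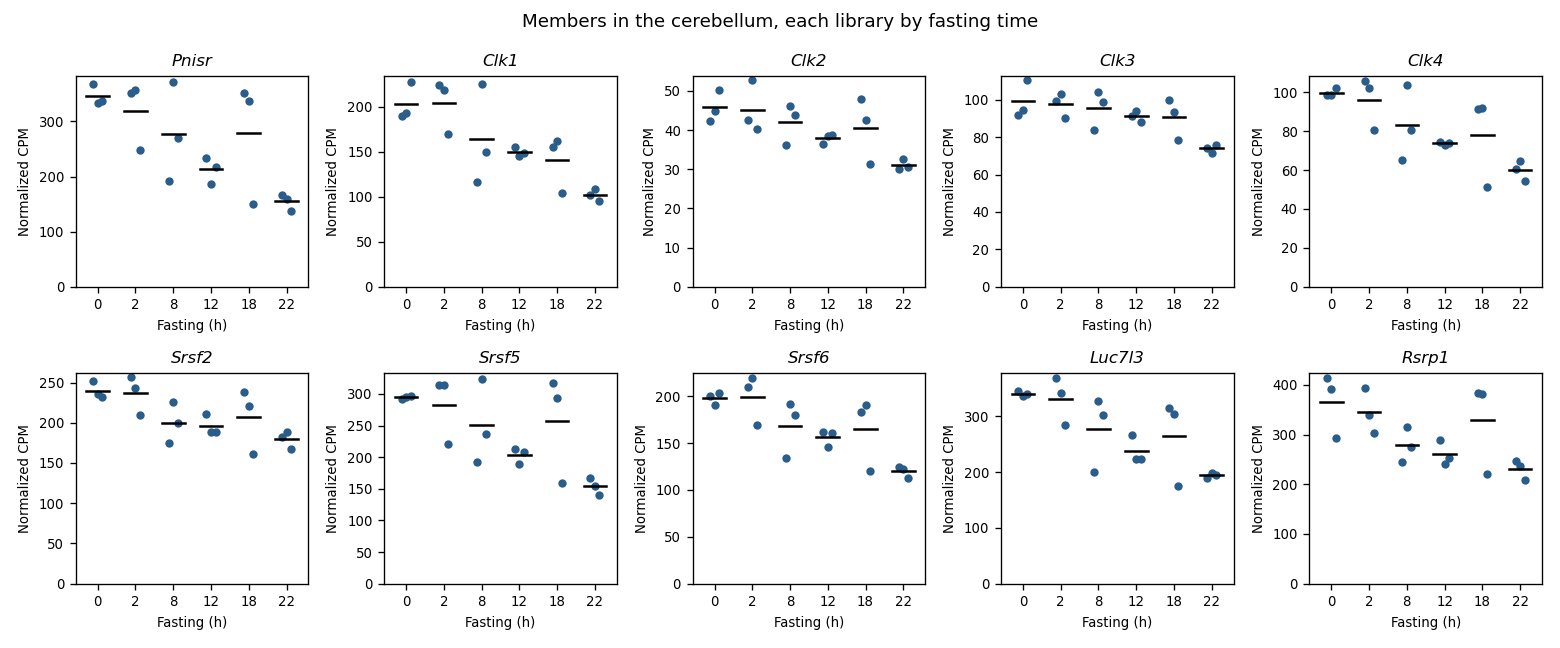
Normalized CPM (vertical axes) of the 10 genes in each cerebellar library by fasting time in hours (horizontal axes), with points for libraries and bars for the mean of 3. The 22 h libraries of Pnisr lie between 138.2 and 167.01 CPM, and 18 h replicates 1 and 2 lie at 351.4 and 336.6.

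Marker sums chosen for other tissues moved in the same CBL libraries. The summed level of 3 choroid plexus markers (Folr1, Kl and Kcne2, of which Kl was the most abundant) had a median of 96.2 CPM at 0 and 2 h and 26.7 at 18 and 22 h. At 18 h the choroid sum was 23.7, 111.2 and 45.2 CPM in replicates 1 to 3, so it was low in replicate 1, where Pnisr was high. The summed level of the 4 LIV markers (Alb, Apoa1, Cyp2e1 and Ttr) had a median of 3081 CPM early and 937.6 late in CBL. Nearly all of it was Ttr, which ran from 653 to 5151 CPM while Alb was at most 5.54. In CBL this sum is thus a reading of Ttr and not of liver RNA. The depth of the 0 h libraries also differed, as given above, while those of 2 h were no deeper than the rest. The part of these in the CBL values was not tested. In bulk tissue, fewer cells of a type and less RNA per cell cannot be told apart.

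Over the 18 CBL libraries, which share a tissue and 1 sequencing lane, the other 9 genes had Pearson correlations with Pnisr (log2 CPM) from 0.864 for Clk3 to 0.993 for Srsf5, with a median of 0.940. Among 12295 genes Srsf5 was the most alike, followed by Ttc14 (0.987), Akap8 (0.984), Srsf11 (0.983), Appl2 (0.981), Ints6l (0.980), AI480526 (0.980), Arglu1 (0.978), Paxbp1 (0.977) and Ccnt2 (0.976). The most opposed genes were Chmp4b (-0.893), Endod1 (-0.889), Tmem50a (-0.884), Cldn11 (-0.879) and Pdlim2 (-0.871). The range behind these values was wide for AI480526, from 20.5 to 67.5 CPM, and narrow for Chmp4b, from 232.6 to 270.7 CPM.

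The median correlation of the 9 genes with Pnisr was lower in the other organs: 0.884 in STM (n = 17), 0.789 in pgWAT (n = 18), 0.781 in LIV (n = 18), 0.724 in BST (n = 18), 0.655 in OB (n = 18), 0.643 in iBAT (n = 17), 0.613 in BRN (n = 16) and 0.519 in psWAT (n = 17). Luc7l3 was the most alike of the 9 in OB (0.873), BRN (0.912), LIV (0.90) and iBAT (0.930). Rsrp1 had -0.04 in BRN and 0.189 in iBAT, the lowest values there. These correlations are descriptions over libraries that also differ in depth and, outside CBL and BST, in lane. The genes were chosen by their CBL values, which favours a higher correlation there, so the order of CBL above the other organs is not a result.

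The comparison open to a test asks, in the 8 organs other than CBL, whether RNA levels late in fasting (18 and 22 h, up to 6 libraries) differ from those early (0 and 2 h, 6 libraries). A gene was called where the adjusted p of edgeR's quasi-likelihood test over all genes kept in that organ was under 0.05. A second test in the same fits asked whether a gene differed at any of the 6 times. The 10 genes and the lists below were chosen with earlier results of these data known, so the counts in these organs may not be free of that choice.

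In LIV, 7 of the 10 genes were called late against early, all higher late, beside 15.0% of the 14023 genes tested. That share of the 10 is above the background of the organ. With 0 h alone as the early arm, Clk4 (adjusted p 0.0356) and Rsrp1 (0.0245) were the only ones called, beside 1484 of the 14023 genes. With 22 h alone as the late arm none of the 10 was called, beside 605 of all genes. Over the full arms the values were as follows. The median log2FC was 0.33 over all 10 genes, beside 0.01 over all genes. The test of any time called 6 of the 10, beside 16.0% of all genes.

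In LIV, Rsrp1 had a lowest, median and highest value of 455, 679 and 764 CPM early and of 876, 953 and 1476 late. Each of the 6 late libraries lay above all 6 early ones, and the 8 and 12 h libraries, between 835 and 1120 CPM, also lay above all early ones. Its log2FC was 0.70 (SE 0.13, adjusted p 0.00201). The call held in 18 of 18 fits that each left out 1 library. With fewer libraries in an arm, the log2FC was 0.61 against 0 h alone (adjusted p 0.0245) and 0.51 with 22 h alone as the late arm (adjusted p 0.0712).

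Among the kinase genes in LIV, Clk4 ran from 81.2 through a median of 95.9 to 110 CPM early and from 118.03 through 119.8 to 158.2 late. The groups did not overlap, with the highest value in 18 h replicate 1. The log2FC of Clk4 was 0.40 (SE 0.10, adjusted p 0.0115, higher in 6 of 6 late libraries than in any early one). Clk1 (log2FC 0.36, SE 0.11, adjusted p 0.0324) and Clk3 (log2FC 0.33, SE 0.10, adjusted p 0.0318) were also called, each with 4 of 6 late libraries above all early ones. Those calls were kept in 11 of 18 fits for Clk1 and 10 of 18 for Clk3, and without 2 h replicate 2 the adjusted p were 0.0986 and 0.104. Clk2 was not called (log2FC 0.29, SE 0.15, adjusted p 0.208).

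The SR protein gene Srsf5 measured 348, 352 and 349 CPM at 0 h in LIV, 244.1, 159.3 and 205.3 at 2 h, 404, 354 and 354 at 18 h, and 304, 322 and 328 at 22 h. Its low values were those of 2 h, and the 22 h libraries lay below those of 0 h. Over both early times its log2FC was 0.37 (SE 0.09, adjusted p 0.0114, 3 of 6 late libraries above all early ones), and against 0 h alone it was -0.03 (adjusted p 0.905), so its call rested on the 2 h libraries. The test of any time also called it (adjusted p 0.00352).

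Srsf2 in LIV measured 258, 260 and 318 CPM at 0 h and 251.3, 190.5 and 203.9 at 2 h, beside late values from 280 through a median of 314 to 331. The early and late groups overlapped through 0 h replicate 3, and only 2 of 6 late libraries lay above all early ones. Its log2FC was 0.33 (SE 0.08, adjusted p 0.0133), and 0.14 against 0 h alone (adjusted p 0.420). Srsf6 was not called (log2FC 0.18, SE 0.08, adjusted p 0.130).

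Luc7l3 in LIV ran from 83.7 through 87.0 to 95.6 CPM early and from 86.2 through 110.4 to 132.99 late. The late value of 86.2, in 18 h replicate 2, was the only one within the early range. Its log2FC was 0.31 (SE 0.09, adjusted p 0.0247), and without 18 h replicate 1 its adjusted p was 0.0731. Pnisr was not called (log2FC 0.28, SE 0.12, adjusted p 0.115), although 8 h and 12 h values between 140 and 172 CPM lay above all 6 early ones, the highest of which was 129.

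**Figure D2:**
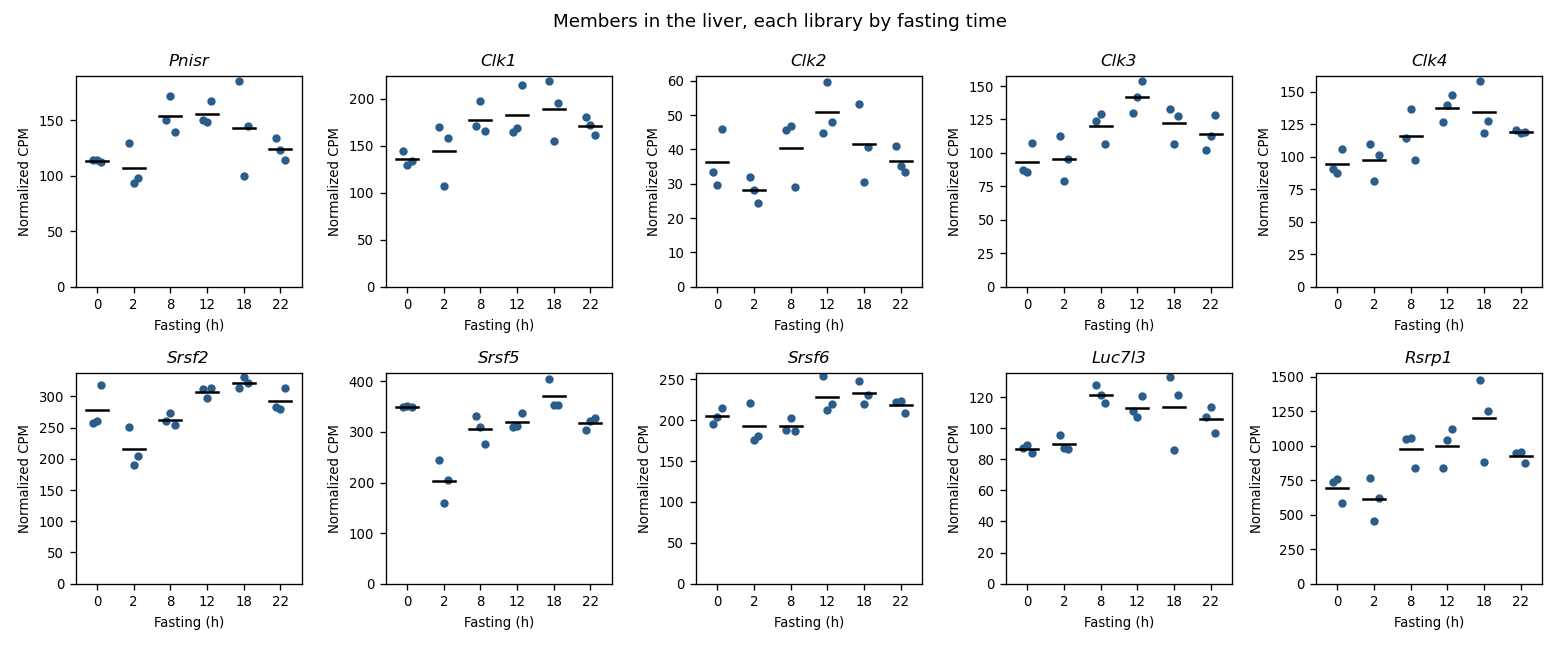
Normalized CPM (vertical axes) of the 10 genes in each liver library by fasting time in hours (horizontal axes), with points for libraries and bars for the mean of 3. Rsrp1 lies at or under 764 CPM in the 6 libraries of 0 and 2 h and at or above 835 in the others, and Srsf5 is lowest at 2 h.

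In LIV, libraries of animals 1 to 8 were run in lane 1 and those of animals 9 to 18 in lane 2, and the same split by animal held for OB and STM in other lanes. No lane held both early and late libraries in these 3 organs, so lane and fasting time are joined there except through the 8 h group. At 8 h in LIV, Rsrp1 measured 1047 and 1054 CPM in the first lane and 835 in the second. With lane as a term, its log2FC was 1.03 (adjusted p 0.134), and 0 of the 10 genes and 8 of all genes were called in LIV. The other genes called without that term had log2FC from 0.40 for Srsf2 to 0.77 for Clk4 with it, each above its value without it. Because lane and fasting time overlap almost fully, they cannot be told apart in LIV, OB and STM. In pgWAT too no lane held both, with early libraries in lanes 5 and 7 and late ones in lane 6.

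In STM, 5 of the 10 genes were called late against early, all higher late, beside 22.7% of 16281 genes. All 10 had a positive log2FC, with a median of 0.58 beside 0.01 over all genes. For any time, edgeR called 0 of 10, beside 6.55% of all genes, with 6 of the 10 and 3859 of all genes at an unadjusted p under 0.05, and DESeq2 called 5, beside 2805 of the 16281.

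Rsrp1 in STM ran from 222 through 369 to 439 CPM early and from 447 through 722 to 813 late. The groups did not overlap, though 22 h replicates 2 and 3, at 467 and 447, lay just above the early libraries. Its log2FC was 0.86 (SE 0.21, adjusted p 0.00864, higher in 6 of 6), and the call held in 17 of 17 fits that each left out 1 library. With 22 h alone as the late arm the log2FC was 0.64 (adjusted p 0.144), and with lane as a term it was 1.31 (adjusted p 0.9), so neither kept the call.

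Among the kinase genes in STM, Clk4 ran from 26.8 through 46.6 to 61.03 CPM early and from 44.3 through 82.9 to 97.9 late. The groups overlapped through the 22 h libraries. Its log2FC was 0.68 (SE 0.22, adjusted p 0.0346), beside 0.64 for Clk3 (SE 0.18, adjusted p 0.0180) and 0.60 for Clk1 (SE 0.18, adjusted p 0.0231). Late libraries above all early ones numbered 4, 5 and 4 of 6 for Clk4, Clk3 and Clk1. Without 2 h replicate 1 their adjusted p were 0.0871, 0.0549 and 0.0686. With 22 h alone as the late arm their log2FC were 0.41, 0.65 and 0.40 (adjusted p 0.375, 0.0951 and 0.277).

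Luc7l3 in STM ran from 68.1 through 90.9 to 115.9 CPM early and from 89.5 through 138.9 to 160.8 late. The groups overlapped, and 4 of 6 late libraries lay above all early ones. Its log2FC was 0.50 (SE 0.15, adjusted p 0.0235), and without 2 h replicate 1 the adjusted p was 0.0708. With 22 h alone the log2FC was 0.26 (adjusted p 0.399). Pnisr, Clk2, Srsf2, Srsf5 and Srsf6 were not called, with adjusted p from 0.0550 for Srsf5 to 0.301 for Srsf2.

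The make-up of the STM libraries also differed. The summed level of 4 stomach epithelial markers (Gkn1, Atp4a, Muc5ac and Tff1, of which Gkn1 had the highest median) ran from 23490 to 61690 CPM early and from 10320 to 36020 late. The sum of 3 skeletal muscle markers (Ckm, Acta1 and Myh4, of which Acta1 was the most abundant and Myh4 at or near 0) ran from 161.1 to 1226 CPM early and from 1392 to 3293 late, with no overlap. The part of tissue make-up in the STM results was not tested.

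In iBAT, 3 of the 10 genes were called late against early, all lower late, beside 36% of 14529 genes. That count is near the background and is not a result about the 10 genes as a group. Their median log2FC was -0.30, beside -0.08 over all genes. For any time, 1 of 10 was called, Pnisr (adjusted p 0.0373), beside 29% of all genes.

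Pnisr in iBAT measured 67.3, 133.01 and 119.01 CPM at 0 h, 71.9, 101.4 and 123.8 at 2 h, 70.7, 74.2 and 76.8 at 18 h, and 26.1 and 45.5 in the 2 libraries of 22 h. The 18 h values lay within the early range, and the 22 h values lay below it. Over both late times its log2FC was -0.99 (SE 0.24, adjusted p 0.00561, 2 of 5 late libraries below all early ones). With 18 h alone, a setting chosen after seeing the data, the log2FC was -0.47 (adjusted p 0.701), and with 22 h alone it was -1.50 (adjusted p 0.00222).

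Luc7l3 in iBAT ran from 52.7 through 71.2 to 84.6 CPM early and from 28.6 through 48.9 to 56.1 late. The groups overlapped in 1 late library, 18 h replicate 2. Its log2FC was -0.66 (SE 0.18, adjusted p 0.0101), and without 22 h replicate 2 the adjusted p was 0.0670. Clk1 (log2FC -0.59, SE 0.20, adjusted p 0.0283) had 0 of 5 late libraries below all early ones, and without 2 h replicate 3 its adjusted p was 0.0943.

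Other measures moved with the iBAT difference. The median log2FC was 0.47 for genes with up to 2353 exon bases and -0.56 for those with at least 6488, and with a length term in the fit, also chosen after seeing the data, 0 of the 10 genes were called. The library of 22 h replicate 2 held 3156101 counts, the fewest of those used in iBAT. The summed level of 4 brown fat markers (Ucp1, Cidea, Ppargc1a and Adipoq, of which Ucp1 was the most abundant) ran from 5788 to 9649 CPM early and from 8125 to 12350 late. The sum of 3 blood markers (Hbb-bs, Hba-a1 and Alas2, of which Hbb-bs was the most abundant) had a median of 127.7 CPM early and 432.5 late, and that of the 3 skeletal muscle markers, of which Acta1 was the most abundant, 337.5 and 768.8, both with overlap. Within lane 5, Pnisr measured 119.01, 71.9 and 101.4 CPM in 3 early libraries and 76.8 in 1 late library, and within lane 8 it measured 67.3 and 133.01 early and 70.7 late, so early values lay on both sides of the late one in each lane. With lane 8 against the other lanes as a term the 3 calls were kept. The log2FC were -0.97 for Pnisr (adjusted p 0.00937), -0.65 for Clk1 (0.0203) and -0.64 for Luc7l3 (0.0178). The call of Pnisr at any time was not kept with this term. The 22 h libraries ran in lanes 1 and 3, which held no early iBAT library, so the term does not separate their values from those lanes. Without 22 h replicate 2 the adjusted p of Pnisr was 0.0428. The part of tissue make-up in the iBAT result was not tested.

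In BRN, 2 of the 10 genes were called late against early, both lower late, beside 7.43% of 16749 genes. The median log2FC of the 10 was -0.32, beside -0.07 over all genes. For any time, edgeR called 0 of 10, beside 0.00597% of all genes, with 6 of the 10 and 2780 of all genes at an unadjusted p under 0.05, and DESeq2 called 4, beside 1577 of the 16749.

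Pnisr in BRN measured 171.9, 166.2 and 158 CPM at 0 h, 84.0, 142.5 and 97.7 at 2 h, 77.9 and 81.4 at 18 h, and 71.7, 46.6 and 104.4 at 22 h. The 0 h libraries were the highest, and the groups overlapped through 22 h replicate 3. Its log2FC was -0.80 (SE 0.19, adjusted p 0.0233, 4 of 5 late libraries below all early ones), and without 18 h replicate 2 the adjusted p was 0.122. Srsf2 ran from 100.3 through 118.7 to 132.96 CPM early and from 55.1 through 79.8 to 113.1 late, with a log2FC of -0.56 (SE 0.15, adjusted p 0.0330, 4 of 5 late libraries below all early ones). Without 18 h replicate 2 its adjusted p was 0.183. In fits that each left out 1 library, Pnisr kept its call in 11 of 16 and Srsf2 in 8 of 16.

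All 5 late BRN libraries belong to 1 library number series, and so do 2 h replicates 1 and 2 of the early ones. Within that series Pnisr measured 84.0 and 142.5 CPM early and 46.6 to 104.4 late, and Srsf2 measured 100.3 and 113.4 early and 55.1 to 113.1 late, so Pnisr overlapped and so did Srsf2. With the series as a term the log2FC was -0.76 for Pnisr (adjusted p 0.419) and -0.50 for Srsf2 (adjusted p 0.456). Both calls were lost, as were those of all 16749 genes. Only 2 early libraries share the series with the late ones, so series and fasting time are largely joined in BRN. Genes of up to 2378 and of at least 6463 exon bases had median log2FC of 0.28 and -0.32. With a length term, chosen after seeing the data, Srsf2 kept its call (adjusted p 0.0290) while Pnisr had an adjusted p of 0.0658. The sum of the 3 blood markers had a median of 97.5 CPM early and 201.6 late in BRN, with Hbb-bs the most abundant, and that of 3 pancreatic acinar markers (Prss2, Cela2a and Cpa1, of which Cpa1 was the most abundant) 2.23 and 6.62. A further marker set, not given here, rose by more CPM in BRN than either of these. The part of tissue make-up in the BRN result was not tested.

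In OB, 2 of the 10 genes were called late against early, both lower late, beside 4.87% of 16742 genes. Clk1 ran from 130.2 through 143.8 to 196.8 CPM early and from 110.3 through 118.3 to 138.2 late, with 5 of 6 late libraries below all early ones. The groups overlapped through 18 h replicate 2. Its log2FC was -0.31 (SE 0.09, adjusted p 0.0444), and the call was kept in 5 of 18 fits that left out 1 library, with the highest adjusted p, 0.122, without 18 h replicate 1. The early value of 196.8 was in 0 h replicate 3. That library also had the highest OB sums of the LIV (346.3 CPM), choroid plexus (12.61) and skeletal muscle (22.34) markers, beside early medians of 3.66, 2.96 and 5.93. The LIV set includes Ttr, which made up nearly all of its sum in CBL, so its value in OB need not reflect liver RNA. The part of tissue make-up in the OB result was not tested.

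Srsf6 in OB ran from 150.8 through 170.98 to 184.6 CPM early and from 136.5 through 148.4 to 152.6 late. The groups overlapped, with 3 of 6 late libraries below all early ones. Its log2FC was -0.21 (SE 0.06, adjusted p 0.0457), and the call was kept in 7 of 18 such fits, with the highest adjusted p, 0.127, without 2 h replicate 2.

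The test of any time called 6 of the 10 in OB, beside 15.3% of all genes: Pnisr, Clk1, Clk4, Srsf5, Srsf6 and Luc7l3, with adjusted p from 0.0220 for Srsf5 to 0.0384 for Clk4. For Pnisr the 8 h libraries measured 272.1, 230.8 and 281.5 CPM. Early values ran from 166.4 to 249.4 and late values from 125.6 to 201.2, so 8 h replicate 2 lay within the early range. The 8 h replicates 1 and 2 lie in the lane of the early libraries and replicate 3 in that of the late ones. With lane as a term, 0 of the 10 and 1178 of the 16742 genes were called at any time in OB, and leaving out 1 library gave from 0 to 6.

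In BST, edgeR called 0 of 10 late against early, beside 0.0775% of 16784 genes. At an unadjusted p under 0.05 there were 3 of the 10, beside 1945 of all genes, and DESeq2 called 0, beside 63. For any time edgeR called 0 of 10, beside 0.107% of all genes, with 6 of the 10 and 1869 of all genes at an unadjusted p under 0.05. DESeq2 called 3, beside 219 of the 16784. The largest difference was that of Clk1, with early values from 57.4 to 79.8 CPM and late values from 52.3 to 74.8, which overlapped (log2FC -0.22, SE 0.07, adjusted p 0.236).

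In pgWAT, edgeR called 0 of 10 late against early, beside 0.00609% of 16412 genes. At an unadjusted p under 0.05 there were 0 of the 10, beside 3316 of all genes, and DESeq2 called 0, beside 761. For any time edgeR called 0 of 10, beside 0.00% of all genes. At an unadjusted p under 0.05 there was 1 of the 10, beside 1694 of all genes, and DESeq2 called 0, beside 550. In psWAT edgeR called 0 of 10 late against early, beside 0.00% of 16721 genes, and 0 of 10 for any time, beside 0.00%. In both tests 0 of the 10 had an unadjusted p under 0.05, beside 1143 of all genes late against early and 3192 for any time. DESeq2 also called 0 of the 10 in both, beside 43 of all genes late against early and 2053 for any time. The spread within groups was wide in these depots, as for Rsrp1 in pgWAT, which ran from 336 through 419 to 610 CPM early and from 369 through 497 to 1183 late. Its log2FC was 0.38 with an SE of 0.23.

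**Figure D3:**
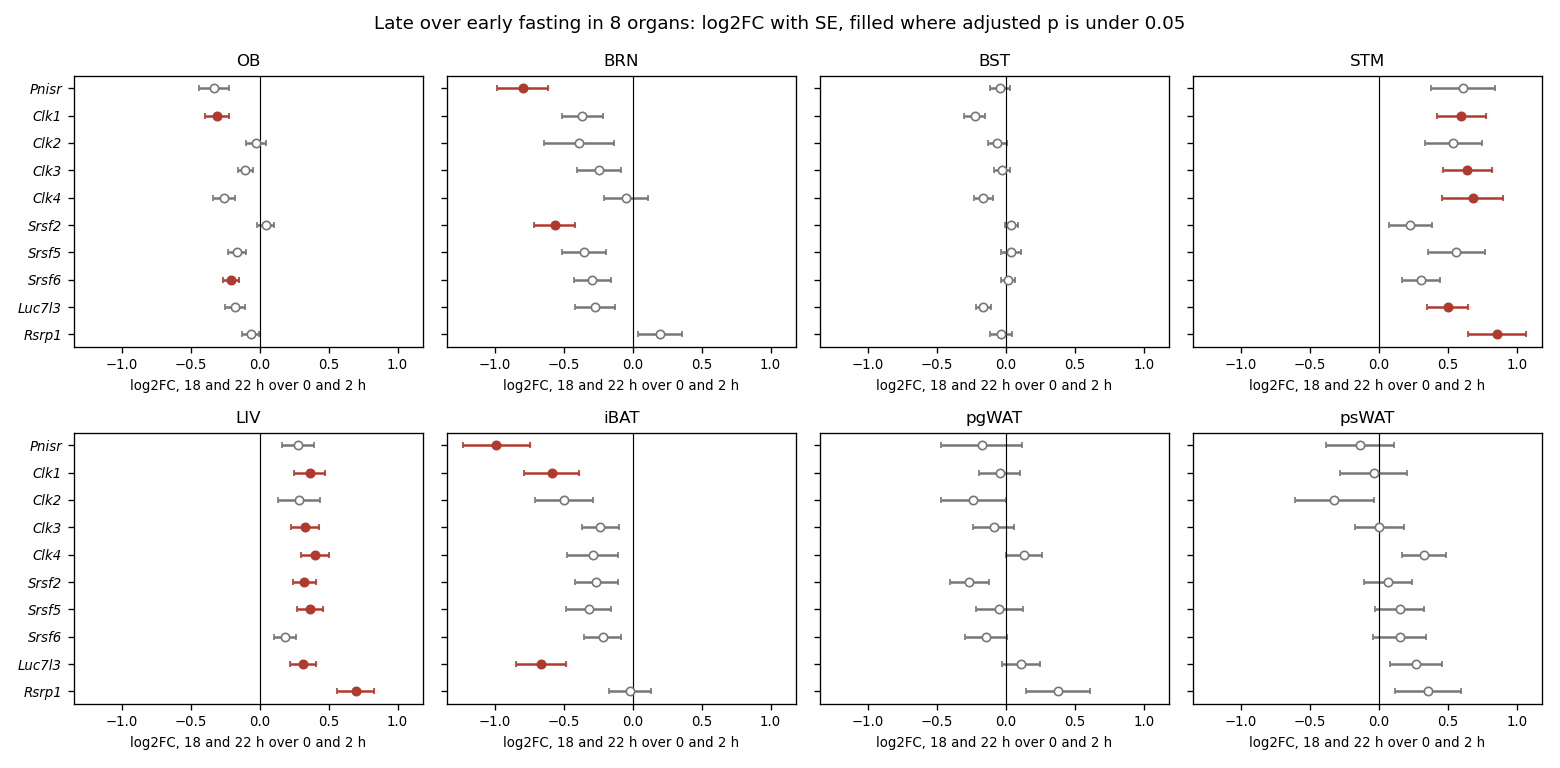
Late (18 and 22 h) over early (0 and 2 h) log2FC of the 10 genes (horizontal axes), with 1 panel for each of 8 organs, points for the estimate, bars for 1 SE, and filled points where the adjusted p is under 0.05. In LIV all 10 estimates lie above 0, with Rsrp1 highest at 0.70, and in iBAT all 10 lie below 0, with Pnisr lowest at -0.99.

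Whether the late over early difference itself varied among organs was tested in 93 libraries of 8 organs, with the animal as a block. By edgeR, 8 of the 10 genes were called, beside 29.1% of 11780 genes, a share above the background. The adjusted p was 0.00160 for Luc7l3, 0.00335 for Clk1, 0.00498 for Clk4, 0.00714 for Clk3, 0.0102 for Pnisr, 0.0161 for Srsf2, 0.0196 for Srsf5 and 0.0209 for Rsrp1. Clk2 (adjusted p 0.132) and Srsf6 (adjusted p 0.0621) were not called. The estimates of Luc7l3 were 0.50 in STM and 0.31 in LIV, beside -0.66 in iBAT, -0.27 in BRN and -0.18 in OB. In OB, STM, LIV and pgWAT the difference is joined with lane, as given above, and this test reads it too.

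Other splicing genes were read from lists, beside shares of all genes called of 15.0% in LIV, 22.7% in STM, 36% in iBAT, 7.43% in BRN and 4.87% in OB. Of 19 SR-related factors, all tested in each organ, 8 were called late against early in LIV, all higher, with a median log2FC of 0.26 over the list. The LIV genes with the smallest adjusted p were Bclaf1 (log2FC 0.39, adjusted p 0.00450), Luc7l (0.42, 0.00706) and Acin1 (0.34, 0.0129). In STM 4 were called, all higher (median log2FC 0.26), led by Luc7l (0.53, adjusted p 0.0198), Acin1 (0.54, 0.0223) and Ccnl2 (0.59, 0.0414), a count near the background of STM.

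In iBAT 18 of the 19 SR-related factors were called, all lower, with a median log2FC of -0.74 beside -0.08 over all genes, led by Rbm25 (-1.10, adjusted p 0.00124), Nktr (-1.48, 0.00180) and Cdk12 (-1.54, 0.00237). In BRN 5 were called, all lower (median log2FC -0.49), led by Srrm2 (-0.61, adjusted p 0.0253), Rbm25 (-0.85, 0.0255) and Nktr (-0.84, 0.0258). In OB 1 was lower, Nktr (-0.42, adjusted p 0.0310; list median -0.13). With the length term, chosen after seeing the data, the list's count in iBAT was 4 of 19, all lower, beside 24.2% of all genes, and its median log2FC was -0.23. That count is near the background. In BRN the same term moved the list's median to -0.13, and Srrm2 (adjusted p 0.410), Rbm25 (0.116) and Nktr (0.274) were not called, while in LIV 9 and in STM 4 of 19 were higher. With 18 h alone as the late arm, also chosen after seeing the data, 0 of 14529 iBAT genes were called, and with 22 h alone 6936. No iBAT call in this or the other lists was thus made without the 22 h libraries.

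Of 10 other SR protein genes, the 8 tested in LIV gave 2 higher late, Srsf4 (log2FC 0.50, adjusted p 0.00728) and Srsf11 (0.42, 0.0387), and the 8 tested in STM gave 1, Srsf4 (0.55, 0.0189). In iBAT 3 of 8 were lower, Tra2a (-1.15, adjusted p 0.00111), Srsf11 (-0.56, 0.0141) and Srsf10 (-0.58, 0.0182), a count at the background of iBAT and not a result about the list. With the length term Tra2a kept its call in iBAT (-0.77, adjusted p 0.00321), while Srsf11 (adjusted p 0.641) and Srsf10 (0.267) did not, and the list had 2 lower, with Srsf9 (-0.45, 0.0452) the other, and 2 higher, Tra2b (0.81, 0.00325) and Srsf3 (0.57, 0.0117), of which Srsf9 and Srsf3 are named after their values were seen. In BRN, 1 of 9 was higher, Tra2b (0.75, adjusted p 0.0361), and 1 lower, Tra2a (-0.70, 0.0402). Medians were 0.12 in LIV, 0.14 in STM, -0.14 in iBAT and -0.26 in BRN.

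Among 7 genes for other SR protein kinases and a phosphatase, 3 of 6 tested were lower late in iBAT, Srpk2 (log2FC -1.31, adjusted p 0.00119), Prpf4b (-0.99, 0.00168) and Srpk1 (-0.49, 0.0190), with a list median of -0.72. With the length term the median was -0.45, and Srpk2 (-0.59, adjusted p 0.00906) and Prpf4b (-0.51, 0.0107) kept their calls while Srpk1 did not (0.20, 0.4003), and Dyrk1a, named after its value was seen, was called higher (0.43, 0.0381). Prpf4b was also lower in OB (-0.23, adjusted p 0.0482). Srpk3 was higher in STM (1.58, adjusted p 0.000654), where its mean was 3.68 CPM early and 11.2 late, and Dyrk1b was higher in LIV (0.75, adjusted p 0.00484).

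Of 20 core spliceosome genes, iBAT had 4 higher and 6 lower, led by Prpf8 (log2FC -0.85, adjusted p 0.00245), Snrpd2 (1.21, 0.00251) and Sf3b1 (-0.74, 0.00336), and BRN had 1 higher, Snrpd2 (1.18, 0.0226), and 2 lower, Prpf8 (-0.59, 0.0208) and Sf3b1 (-0.55, 0.0330). In STM Snrnp70 was higher (0.77, adjusted p 0.0217) and Prpf8 (-0.54, 0.0131) and Snrpb (-0.41, 0.0457) were lower, and in LIV Snrpd2 was higher (0.47, 0.00482). Their medians were -0.13 in iBAT, 0.23 in BRN, 0.03 in STM and 0.10 in LIV. The counts in STM and LIV are below the shares of all genes called there, 22.7% and 15.0%, and are not results about the list. With the length term iBAT had 2 higher and 3 lower, beside 24.2% of all genes, with Prpf8 (-0.43, adjusted p 0.0207) and Snrpd2 (1.02, 0.00625) among them and Sf3b1 not (adjusted p 0.535), and in BRN Snrpd2 kept its call (1.18, 0.0294) while Prpf8 (adjusted p 0.0748) and Sf3b1 (0.286) did not. The length term thus turned 1 higher and 2 lower in BRN into 3 higher and 0 lower, the new calls being Eftud2 (0.58, adjusted p 0.0252) and Sf3b2 (0.45, 0.0245), named after their values were seen.

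Of 12 genes for hnRNP proteins, 11 were tested in each organ. In STM 3 were lower, Hnrnpf (log2FC -0.56, adjusted p 0.00420), Hnrnpa2b1 (-0.41, 0.0296) and Hnrnpm (-0.37, 0.0301), and in LIV 2 were lower, Hnrnpa1 (-0.60, 0.0117) and Hnrnpa2b1 (-0.25, 0.0251). In iBAT 5 were lower, led by Hnrnph1 (-0.95, adjusted p 0.00123), Hnrnpa3 (-0.89, 0.00213) and Hnrnpm (-0.86, 0.00227). Hnrnph1 was lower in BRN (-0.55, adjusted p 0.0414), Hnrnpa2b1 in BST (-0.23, 0.0248), and Hnrnpa0 was higher in OB (0.23, 0.0278). The list medians were -0.28 in STM, 0.01 in LIV and -0.30 in iBAT. The counts in STM, LIV, iBAT and BRN are near the shares of all genes called there, 22.7%, 15.0%, 36% and 7.43%, and are not results about the list. With the length term 2 were lower in iBAT.

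Nuclear-retained long noncoding RNAs were also read. In STM 4 of 6 were higher, led by Malat1 (log2FC 1.28, adjusted p 0.00242), Kcnq1ot1 (1.19, 0.00295) and Snhg11 (2.18, 0.00351), and in iBAT 3 of 4 tested were lower, Kcnq1ot1 (-2.60, 0.00300), Neat1 (-1.30, 0.00432) and Malat1 (-1.98, 0.00456). The list medians were 1.24 in STM, -1.64 in iBAT and -0.13 in LIV. With the length term 1 of the 4 was lower in iBAT and the median was -0.58.

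Of 8 temperature-responsive genes, Cirbp was higher late in OB (log2FC 0.49, adjusted p 0.0110), BRN (0.62, 0.0193), STM (0.94, 0.00353), LIV (0.69, 0.00111) and iBAT (0.78, 0.00587). Cirbp in OB was higher in 6 of 6 late libraries than in any early one, in BRN and iBAT in 5 of 5, in STM in 5 of 6 and in LIV in 4 of 6. Hsph1 was lower in STM (-1.21, adjusted p 0.00664), iBAT (-2.27, 0.0117) and LIV (-1.025, 0.0253). In LIV 4 of 8 were lower, led by Hspa1a (-1.69, 0.00509) and Hspa1b (-1.62, 0.0145), with a list median of -0.51. Cirbp, 1 gene of the list, thus had the same sign in 5 organs. The called members were higher in 2 of these organs and lower in 3. Rbm3, also in the list, was named after its values were seen. It was not called in STM (log2FC -0.02, adjusted p 0.941), LIV (0.19, 0.216) or iBAT (-0.26, 0.194). Its sign in STM and iBAT was opposite to that of Cirbp. In LIV the called genes of the list went both ways, so the list median gives no single direction. Whether temperature had a part in the values of the members was not tested.

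Levels among organs were read from all libraries used, normalized together, in CPM per kilobase of exon where genes are compared. Rsrp1 had the highest and Clk2 the lowest level of the 10 per kilobase in all 9 organs, from 46.9 for Rsrp1 in BST to 434 in LIV and from 3.69 for Clk2 in BST to 11.95 in psWAT. The length used counts all annotated exon bases, of which 56.8% in Clk2 and 7.57% in Luc7l3 lie outside coding transcripts. The lowest rank of Clk2 in all organs depends on that choice of length.

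On the same scale without division by exon length, Rsrp1 had a mean of 1452 CPM in LIV (SD 406, n = 18), 941 in psWAT (SD 250, n = 17), 683 in iBAT (SD 107, n = 17), 560 in STM (SD 203, n = 17), 437 in pgWAT (SD 178, n = 18), 363 in OB (SD 30.6, n = 18), 275 in BRN (SD 47.3, n = 16), 243 in CBL (SD 54.1, n = 18), and 156.98 in BST (SD 19.5, n = 18). In that order, LIV differed from psWAT, psWAT from iBAT, OB from BRN and CBL from BST by more than the larger SD of the pair, and the other neighbours did not. The highest mean was in LIV for 6 of the 10 genes and in psWAT for 4, and the lowest was in BST for 7, in BRN for Srsf2 and Srsf6, and in iBAT for Luc7l3. These orders depend on the scaling: with totals alone the highest mean was in psWAT for all 10 genes, as for Rsrp1 with 1227 CPM in psWAT beside 909 in LIV, and with RLE scaling it was in LIV for 5, in psWAT for 4 and in CBL for Pnisr.

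Pnisr varied least among organs under this scaling, from 214 CPM in LIV (SD 44.8, n = 18) to 86.0 in BST (SD 9.97, n = 18), a ratio of 2.49, and in its order only OB and pgWAT were neighbours that differed beyond their spread. With totals alone its ratio was 3.12 and Clk3 varied least (2.42). Rsrp1 varied most, with a ratio of 9.25, and of 7.06 with totals alone. For the kinase genes the ratio of highest to lowest organ mean was 5.87 for Clk1, 4.78 for Clk4, 3.35 for Clk3 and 3.24 for Clk2.

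**Figure D4:**
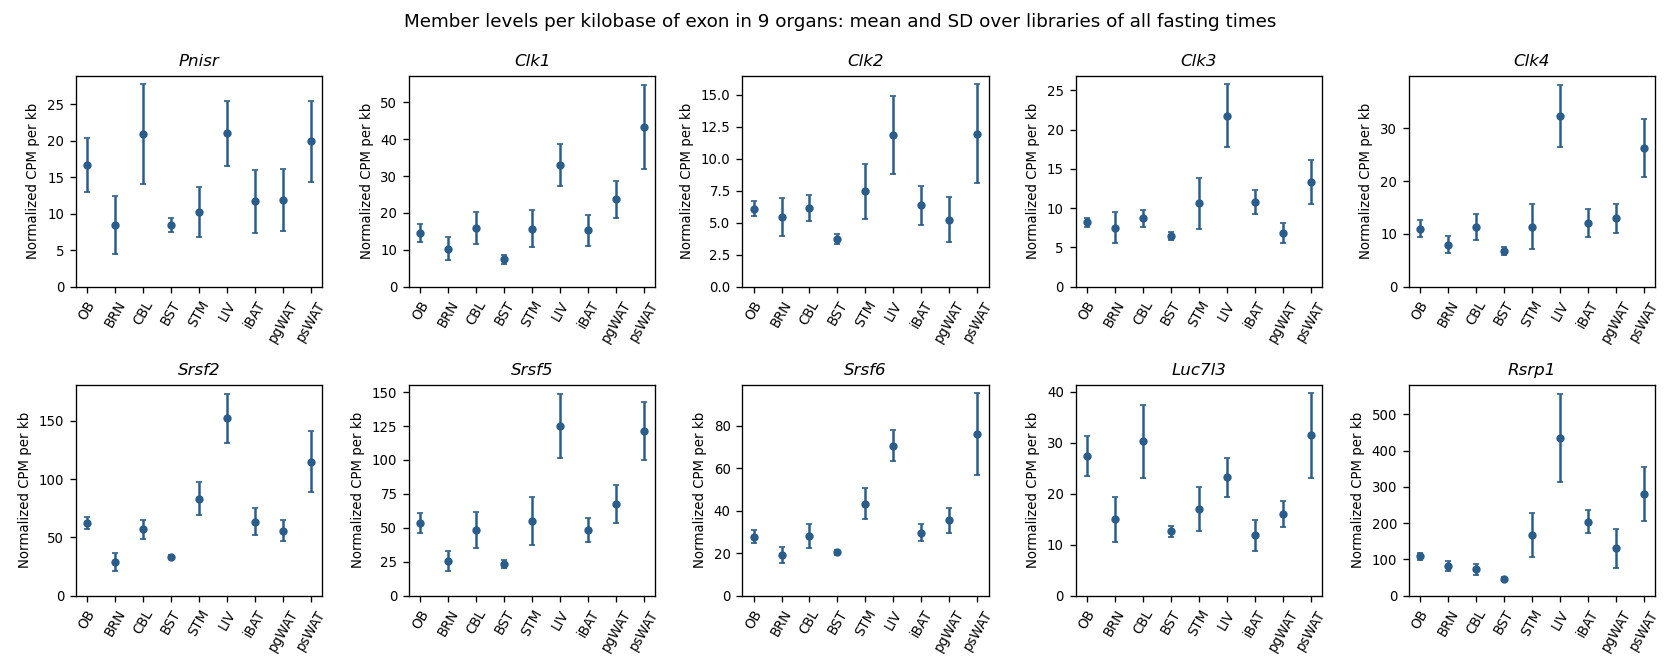
Level of each of the 10 genes in 9 organs (horizontal axes) as normalized CPM per kilobase of exon (vertical axes), with points for the mean and bars for the SD over libraries of all fasting times. Rsrp1 runs from 46.9 in BST to 434 in LIV.

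The mean of the 4 nervous system organs against that of the other 5 was tested with the animal as a block, and a gene was called where its adjusted p was under 0.05 and its log2FC was beyond 1 in size. By edgeR, 5 of the 10 genes were called, beside 53.7% of 21601 genes, so the count is at the background and is not a result about the 10 genes. Those called were Rsrp1 (log2FC -1.57, SE 0.06), Srsf5 (-1.13, SE 0.05), Clk1 (-1.06, SE 0.06), Srsf2 (-1.02, SE 0.04) and Srsf6 (-1.01, SE 0.04), all lower in the nervous system organs. The median log2FC of the 10 was -0.97 beside -0.10 over all genes, and with totals as the only scaling these were -0.57 and 0.30. Under that scaling Pnisr moved from -0.18 to 0.21, so its direction depends on it, and Luc7l3 was 0.08 under the first and 0.48 under the second. CBL, whose values over time chose the genes, is 1 of the 4 organs. Without it, a setting chosen after seeing the data, 6 of the 10 were called, beside 53.6% of 21503 genes, with a median log2FC of -1.05 over the 10, and Luc7l3 was -0.10 and Pnisr -0.41.

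Promoters of 8 of the 10 genes, 250 bases before to 50 after the gene start, were found in RefSeq sequence of GRCm38.p6, and the 250 bases before the start were searched. Pnisr and Clk1 were not in that table. The letters TGACGTCA, searched on both strands, were in 1 of the 8, that of Clk4, beside 1.55% of 32851 promoters, and the shorter TGACG, which is part of it, was in 6 of 8, beside 17.8%. The Clk4 match is shown because Clk4 was called in LIV and STM, with the 8 letters in capitals, at chr11:51263039-51263066 on the plus strand. The match ends 57 bases before the RefSeq start of Clk4, which differs from the Gencode start given above (51261730), so by the latter it lies inside the gene.

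Clk4: ccgccgtcccTGACGTCAcagacccctc

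A match of letters is a description of the sequence, and no binding was measured in these data.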

How the data were processed

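Gene counts were used as deposited: the authors aligned reads with TopHat2 2.1.1 to GRCm38.p5 and counted them per gene with HTSeq 0.9.1, by the submitters' processing notes. The HTSeq strand setting is not given in the sources used here. Annotation came from Gencode release 21, which is later than the authors' release. In each organ a gene was kept where at least 3 libraries reached the CPM that 10 counts make at the median library size. Counts were scaled by TMM and tested per organ with edgeR 4.0.16 (limma 3.58.1, R 4.3.3) by a robust quasi-likelihood test with Benjamini-Hochberg adjustment over all genes kept, with time as a factor. DESeq2 1.42.0 was an alternative. Correlations used log2 of CPM plus 0.5 and genes at 5 CPM or more. The edgeR and DESeq2 fits were tested on simulated data. Alternatives covered scaling, filter, libraries, lane, arms and exon length. Named genes were the 10 members, the 10 most and 5 least like Pnisr in CBL, and from each list the called genes if 3 or fewer, otherwise the 3 with the smallest adjusted p in an organ. The members and lists were chosen with earlier results of these data known. SE is the absolute log2FC divided by the square root of F.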

Additional observations from a re-analysis of the deposited data

Results flagged for a closer look

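For 8 of the 10 genes the late over early difference varied among 8 organs by edgeR's quasi-likelihood test of the organ-by-arm terms with the animal as a block. The adjusted p was 0.01023 for Pnisr, 0.003349 for Clk1, 0.00714 for Clk3, 0.004976 for Clk4, 0.01606 for Srsf2, 0.0196 for Srsf5, 0.001599 for Luc7l3 and 0.02085 for Rsrp1. Over 17 alternatives Pnisr, Clk1, Clk3, Clk4 and Luc7l3 were called in 17, Srsf2 in 15, and Srsf5 and Rsrp1 in 14. In OB, STM, LIV and pgWAT the difference cannot be told apart from lane.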

How the results depend on the processing

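Of the 19 calls late against early, those still called numbered 19 with DESeq2, 19 with RLE scaling, 19 with no filter, 15 with all libraries, 10 with 0 h alone as the early arm, 3 with 22 h alone as the late arm and 3 with a lane or series term (lane in OB, STM and LIV, lane 8 against the others in iBAT, the library series in BRN). With 18 h alone 13 remained called and with a length term 14, both chosen after seeing the data. Fewer libraries enter the arms of 0 h, 18 h or 22 h alone, though those of 18 h and 22 h are of similar size and kept 13 and 3 calls. The cause of the shifts was not tested.

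Late against early, the count of 10 became in OB (2 called) 4 with DESeq2, 5 with no filter, 1 with a length term and 0 with lane, with 0 h alone, with 22 h alone or with a fold threshold. In BRN (2) it became 1 with a length term and 0 with 18 h alone, 22 h alone, all libraries, the series term or the fold threshold. In BST (0) it became 1 with no filter. In STM (5) it became 8 with DESeq2 and 0 with lane, 22 h alone or the fold threshold. In LIV (7) it became 2 with 0 h alone and 0 with lane, 22 h alone or the fold threshold. In iBAT (3) it became 1 with all libraries and 0 with 18 h alone, a length term or the fold threshold. In OB, STM and LIV only the 8 h group lay in both lanes, so the estimates with lane rest on it. Their size cannot tell lane from fasting time. In STM the log2FC with lane were 1.31 for Rsrp1, 1.12 for Clk1 and Clk4, 0.95 for Clk3 and 0.65 for Luc7l3 (adjusted p 0.9 for each). In OB they were -0.32 for Clk1 (adjusted p 0.662) and -0.25 for Srsf6 (0.648).

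At any time, OB (6) became 0 with lane and 2 with a length term, and BRN (0) became 4 with DESeq2 or no filter. BST (0) became 3 with DESeq2 and 5 with no filter. STM (0) became 5 with DESeq2, 3 with no filter and 2 with a length term or with the replicate number as a block. LIV (6) became 1 with lane. iBAT (1) became 2 with DESeq2, no filter or the replicate block, and 0 with lane or a length term. Replicate numbers did not pair libraries, since the mean correlation of same-number libraries ran from -0.088 to 0.181, so the block is given only here. For nervous system against other organs (5), the count was 3 with RLE scaling, 1 with total counts and 9 with no fold threshold.

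Of all genes, those called late against early numbered 0 with lane in OB and STM, 8 with lane in LIV and 0 with the series term in BRN. With DESeq2 they were 1328 of 16742 in OB and 4458 of 16281 in STM. With 22 h alone they were 27 in OB, 264 in BRN, 416 in STM, 605 in LIV and 6936 in iBAT, and with 18 h alone 0 in iBAT.

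Srsf5 in LIV changed sign with 0 h alone (log2FC -0.0273).

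With 1 library left out in turn, the counts late against early ran from 0 to 5 in OB, 0 to 3 in BRN, 0 to 1 in BST, 1 to 8 in STM, 4 to 9 in LIV, 1 to 5 in iBAT and stayed at 0 in pgWAT and psWAT. At any time they ran from 0 to 6 in OB, 0 to 6 in BRN, 0 to 2 in BST, 0 to 3 in STM, 2 to 8 in LIV and 0 to 2 in iBAT, and were 0 in pgWAT and psWAT. Calls kept in each such fit were those of Rsrp1 in STM, Clk4, Srsf2, Srsf5 and Rsrp1 in LIV, and Pnisr in iBAT. For the difference among organs, with 1 of 12 animals and all its organs left out in turn, the counts ran from 5 to 9.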
